A study of Mus musculus with 50 samples.

Results

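The change of the cardiac transcriptome between 4 and 8 months of age was compared between Tgαq*44 and FVB mice, gene by gene, as the log2 change in Tgαq*44 mice minus the log2 change in FVB mice. This difference is called the strain difference in change below. It is positive where a gene rose more, or fell less, in Tgαq*44 mice, and negative in the opposite case. The comparison used 20 of the 50 libraries of the series, chosen by strain and age as the labels give them, with 5 female mice in each of 4 groups: 8-month-old Tgαq*44, 4-month-old Tgαq*44, 8-month-old FVB and 4-month-old FVB mice. RNA was taken from the apex of the left ventricle. FVB mice were the wild type. Tgαq*44 mice share the FVB background, overexpress a constitutively active Gαq protein in cardiomyocytes from a transgene, and are labelled as having heart failure (HF), which develops slowly with age. The study followed both strains at 5 ages to set HF progression against normal cardiac ageing, and 4 and 8 months are placed by its methods in the early and the transition phase of HF. The mice are separate animals, so the age change is a difference between groups of mice and not a change followed within a mouse.

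Gαq couples receptors for angiotensin II, endothelin and α1-adrenergic agonists to phospholipase C, which releases calcium from internal stores and activates protein kinase C. In cardiomyocytes, sustained Gαq activity is known to drive hypertrophic growth, the return of foetal genes and, with time, dilation and failure. A failing ventricle is also known for matrix deposition by fibroblasts, for stress responses such as the integrated stress response, in which the transcription factor ATF4 induces amino acid and one-carbon enzymes, and for a decline of fatty acid oxidation. Bulk RNA from the ventricle holds cardiomyocytes, fibroblasts, endothelial cells and immune cells, and fewer cells of a type cannot be told apart from less RNA per cell.

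Sequencing depth, as the sum of gene counts, ran from 9.77 to 21.4 M over these 20 libraries. Mitochondrially encoded genes took 15.2 to 19.0% of the counts at 8 months and 20.7 to 27.9% at 4 months in Tgαq*44 mice, and 20.5 to 31.9% at 8 months and 19.5 to 28.8% at 4 months in FVB mice. Libraries were sequenced in several runs, and the run of each library is not given in the sources used here. Ventricular cardiomyocyte markers such as Myh6 were the bulk of the cell markers in each group, with a sum over 12 genes of 41002 to 44976 CPM (read counts scaled to a common library size with TMM factors) at 8 months and 41852 to 54289 CPM at 4 months in Tgαq*44 mice. The sums were 58049 to 64466 CPM at 8 months and 59804 to 60872 CPM at 4 months in FVB mice. Gnaq, the mouse gene of Gαq, was at 37.5 ± 5.46 CPM at 8 and 30.9 ± 5.04 CPM at 4 months in Tgαq*44 mice, against 19.1 ± 3.88 CPM at 8 and 23.1 ± 3.50 CPM at 4 months in FVB mice (mean ± SD, n = 5 here and below). Each Tgαq*44 mouse was above each FVB mouse of its age. The strain difference in change of Gnaq was 0.56 ± 0.26 (log2 ± SE), which did not pass the test (adjusted p = 0.15, edgeR). Transgene transcripts and those of the endogenous gene are not separated in these counts.

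Some libraries stood apart. The library of mouse 4 of the 8-month-old Tgαq*44 group held 101 CPM of Atp2a1, the calcium pump of fast skeletal muscle, where the other 4 mice of the group held 0.360 to 0.578 CPM. It also held 597 CPM summed over B cell and plasma cell markers (47.4 to 64.0 CPM in the other 4 mice), 88.6 CPM over epicardial and mesothelial markers (21.3 to 28.7 CPM) and 224 CPM over adipocyte markers (150.2 to 153 CPM). In 8-month-old FVB mice, interferon response genes summed to 345, 825, 1282, 613 and 372 CPM, with the highest sums in mice 2 and 3. Results that rest on these libraries are given below with and without them.

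A gene was tested if more than 3 mice of at least 1 group exceeded 0.5 CPM, which left 15129 genes. The test was the quasi-likelihood F-test of edgeR, with p-values adjusted over all of these genes. The strain difference in change passed an adjusted p of 0.05 for 1491 genes (9.86%), of which 890 (5.88%) were positive and 601 (3.97%) negative. With the study's fold criterion added, an absolute log2 value over 1, there were 505 DEGs (3.34%), 286 (1.89%) with a higher and 219 (1.45%) with a lower change in Tgαq*44 mice. Over all genes tested, the median strain difference in change was -0.047. An adjusted p under 0.05 was reached by 4736 genes (31.3%) for the change from 4 to 8 months in Tgαq*44 mice and by 1932 genes (12.8%) for that in FVB mice. These component changes are made of the same 20 libraries as their difference, so they show how a difference came about and are not further evidence for it. Single mice moved the counts: without FVB mouse 2 at 8 months there were 331 DEGs and 830 genes past the adjusted p, without Tgαq*44 mouse 4 at 8 months 350 and 890, and without FVB mouse 3 at 4 months 687 and 2421.

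**Figure D1:**
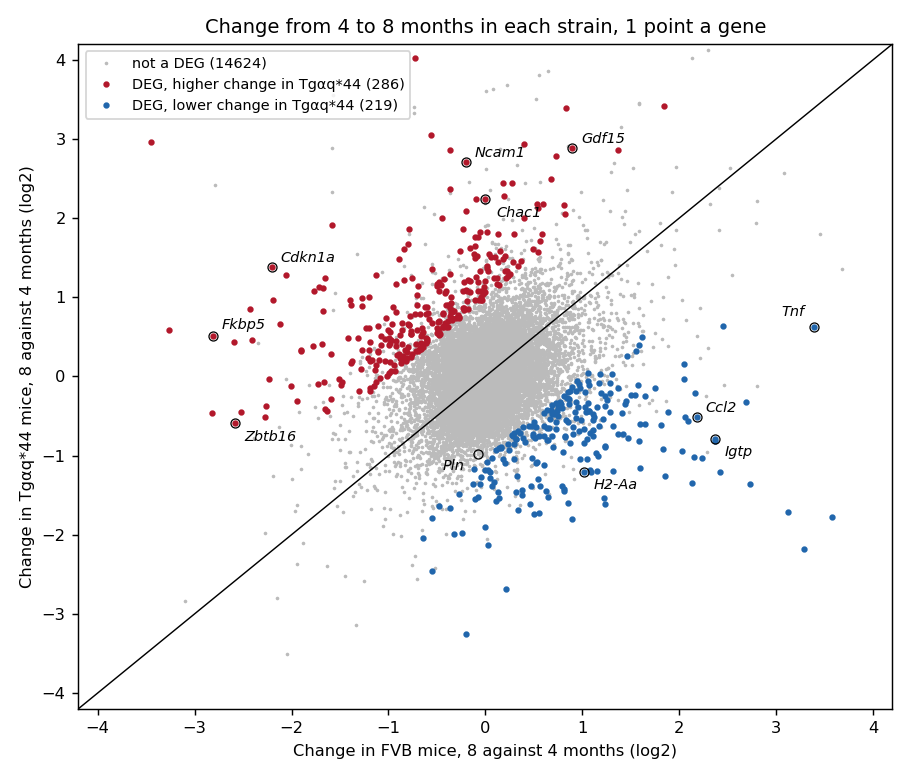
Each point is 1 of 15129 genes, with its log2 change from 4 to 8 months in FVB mice on the x axis and in Tgαq*44 mice on the y axis (5 mice per group and age). The diagonal marks equal change, DEGs with a higher change in Tgαq*44 mice (286, red) lie above it and those with a lower change (219, blue) below it, circled genes are described in the text, Pln is below the fold criterion, and 4 genes lie outside the axes.

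A higher change in Tgαq*44 mice was made both of rises in Tgαq*44 mice and of falls in FVB mice, and a lower change of the reverse. Among the 286 DEGs with a higher change, the median change was 0.80 in Tgαq*44 and -0.62 in FVB mice (log2), and the change was larger in size in Tgαq*44 mice for 155 genes and in FVB mice for 131. Among the 219 DEGs with a lower change, the medians were -0.75 in Tgαq*44 and 0.85 in FVB mice, with the larger change in Tgαq*44 mice for 94 genes and in FVB mice for 125. The 10 mice aged 10 months, which this contrast does not use, gave a separate measure of the strain difference. There, 168 of the 286 genes (58.7%) were higher and 14 (4.9%) lower in Tgαq*44 than in FVB mice, beside 17.1% higher and 16.4% lower among all genes tested at an adjusted p under 0.05 from edgeR. Of the 219 genes with a lower change, 98 (44.7%) were lower and 13 (5.94%) higher in 10-month-old Tgαq*44 mice. Each of 302 DEGs, 196 with a higher and 106 with a lower change, kept an adjusted p under 0.05 in all 20 fits that left out 1 mouse. For a named gene that did not, the number of these fits in which it passed is given beside its adjusted p. The highest p and the mouse left out are given with it. The Wnt genes, which are given together, are the exception.

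**Figure D2:**
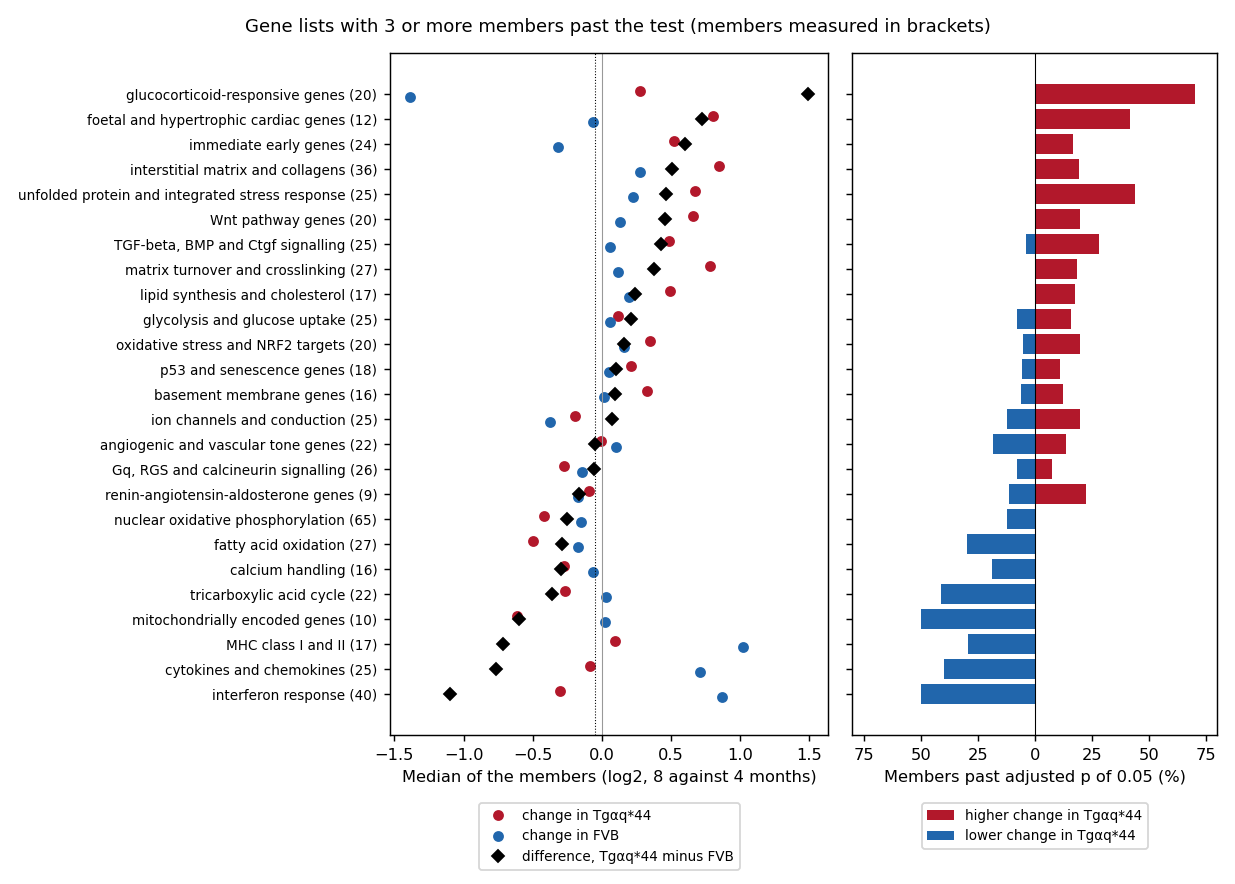
The left panel plots, for each pathway list with 3 or more members past an adjusted p of 0.05, the median log2 change from 4 to 8 months over the members in Tgαq*44 (red) and FVB mice (blue) and the median strain difference in change (black diamonds), with the median of all genes tested as a dotted line at -0.047. The right panel gives the percentage of members with a higher (red) or lower (blue) change in Tgαq*44 mice: glucocorticoid-responsive genes stand at one end (median 1.50, FVB mice -1.39) and interferon response genes at the other (median -1.10, FVB mice 0.87).

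Part of the list of the unfolded protein and integrated stress response diverged upward in Tgαq*44 mice. The members that passed were Atf4, Atf5, Trib3, Chac1, Asns, Gdf15, Psat1, Phgdh, Mthfd2, Sesn2 and Herpud1. The other 14 did not pass, and over the list 19 values were positive and 6 negative. A rise of the unfolded protein response as a whole is not shown by these members. Of 25 members measured, 11 passed the test with a higher change and 0 with a lower one, beside 5.88% and 3.97% of all genes. The median strain difference in change was 0.46, beside -0.047 for all genes. The median change was 0.67 in Tgαq*44 and 0.22 in FVB mice. Chac1, which degrades glutathione and is a target of ATF4 and CHOP, was at 30.9, 15.5, 15.0, 37.8 and 46.0 CPM at 8 months and 4.77, 6.16, 3.45, 6.20 and 10.3 CPM at 4 months in Tgαq*44 mice. FVB mice had 4.02, 3.40, 5.83, 5.36 and 3.34 CPM at 8 months and 3.67, 5.67, 3.18, 4.50 and 5.00 CPM at 4 months. The 5 older Tgαq*44 mice lay above all other mice and the other groups overlapped. Its strain difference in change was 2.25 ± 0.41 (adjusted p = 0.00033, edgeR), made of a change of 2.24 in Tgαq*44 mice and one that did not pass in FVB mice, where the levels averaged 4.39 CPM at 8 and 4.40 CPM at 4 months.

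Enzymes of serine and one-carbon metabolism moved with it. Mthfd2, a mitochondrial folate enzyme, was at 43.9, 53.4, 31.5, 62.7 and 47.6 CPM at 8 months and 7.67, 12.9, 4.69, 7.96 and 9.15 CPM at 4 months in Tgαq*44 mice. In FVB mice it was at 1.34, 2.52, 3.69, 4.00 and 4.11 CPM at 8 months and 2.56, 1.49, 1.12, 2.32 and 2.71 CPM at 4 months. Its lowest 8-month-old Tgαq*44 value was above the highest of the other 15 mice, and Tgαq*44 mice were already above FVB mice at 4 months. This gave a strain difference in change of 1.82 ± 0.35 (adjusted p = 0.00072). Phgdh, which commits a glycolytic intermediate to serine synthesis, was at 17.3, 25.9, 12.8, 28.6 and 20.1 CPM at 8 months and 2.25, 3.54, 2.08, 3.34 and 4.13 CPM at 4 months in Tgαq*44 mice. The FVB values were 1.45, 1.97, 2.59, 3.15 and 3.88 CPM at 8 months and 1.33, 1.96, 1.78, 1.69 and 1.15 CPM at 4 months. The older Tgαq*44 mice were again separate from all others, with a strain difference in change of 2.06 ± 0.41 (adjusted p = 0.00095). Psat1, the next enzyme of serine synthesis, gave 1.11 ± 0.32 (adjusted p = 0.023, 18 of 20 fits, up to 0.053 without Tgαq*44 mouse 4 at 8 months, edgeR).

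Asns, the asparagine synthetase and a classical ATF4 target, gave 1.36 ± 0.30 (adjusted p = 0.0035), and it rose in both strains, by 2.17 in Tgαq*44 and 0.81 in FVB mice (log2). Trib3, a pseudokinase induced by ATF4 and CHOP, gave 1.50 ± 0.38 (adjusted p = 0.0095). For the transcription factors themselves, the values were 1.36 ± 0.33 for Atf5 (adjusted p = 0.0063) and 0.63 ± 0.21 for Atf4 (adjusted p = 0.048, 9 of 20 fits, up to 0.13 without Tgαq*44 mouse 4 at 8 months). Sesn2, a stress-induced inhibitor of mTORC1, gave 1.31 ± 0.28 (adjusted p = 0.0022). Herpud1, a component of endoplasmic reticulum-associated degradation, also had a higher change (0.83 ± 0.19, adjusted p = 0.0046), but by another route: it fell in FVB mice by 0.82 on the log2 scale and had almost the same level at both ages in Tgαq*44 mice (265 ± 23.5 and 264 ± 31.8 CPM at 8 and 4 months). Without mouse 4 of the 8-month-old Tgαq*44 group, 8 of the 25 genes passed instead of 11, and over the 20 fits without 1 mouse the count was between 8 and 11, lowest without FVB mouse 4 at 4 months or Tgαq*44 mouse 4 at 8 months. In 10-month-old mice, Mthfd2, Asns and Phgdh were higher in Tgαq*44 mice by 4.03, 3.36 and 2.74 (log2), and Herpud1 was lower (-0.77).

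Promoter sequences were read for members of this list because ATF4 is known to bind composite C/EBP-ATF sites. RefSeq promoter windows of GRCm38.p6, from 250 bases before to 50 bases after each start, were searched on both strands for TGATGNAA, a choice made after the values were seen. The letters were in 3.97% of all 32851 windows and in 2.82% of 10999 genes tested that had a window. They were in 4.57% of the 219 DEGs with a higher change and in 6.16% of the 146 DEGs with a lower change that had a window. In the list they were in 6 of 23 genes with a window, among them 4 of the 11 stress response genes with a higher change, Asns, Chac1, Herpud1 and Trib3. Stretches of 120 bases are shown for Asns and Chac1, whose levels are described above, with the matching letters in capitals. That of Asns is chr6:7693210-7693329, - strand and that of Chac1 is chr2:119351022-119351141, + strand, where the match is on the other strand.
Asns: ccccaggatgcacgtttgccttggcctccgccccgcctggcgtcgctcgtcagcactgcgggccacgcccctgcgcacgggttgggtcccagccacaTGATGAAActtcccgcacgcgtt
Chac1: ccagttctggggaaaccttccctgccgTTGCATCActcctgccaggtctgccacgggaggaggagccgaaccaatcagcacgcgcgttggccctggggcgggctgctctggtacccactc
A match describes these letters and was not tested as a binding site.

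Foetal and hypertrophic cardiac genes had a median strain difference in change of 0.73. Of 12 members, 5 passed the test, each with a higher change in Tgαq*44 mice, beside 5.88% of all genes. Uchl1, a ubiquitin hydrolase known from neurons that is induced in failing hearts, was at 27.9, 25.4, 18.9, 32.7 and 26.0 CPM at 8 months and 6.68, 9.21, 5.76, 7.44 and 7.97 CPM at 4 months in Tgαq*44 mice. FVB hearts held 6.81, 3.95, 3.89, 4.50 and 4.73 CPM at 8 months and 3.78, 5.54, 4.02, 5.20 and 5.94 CPM at 4 months. The 8-month-old Tgαq*44 mice did not overlap the other groups, and the strain difference in change was 1.88 ± 0.27 (adjusted p = 1.5e-05, edgeR). Nppa, the atrial natriuretic peptide, was at 743, 708, 738, 1729.6 and 965 CPM at 8 months and 228, 330.3, 207, 278 and 397 CPM at 4 months in Tgαq*44 mice. Levels in FVB mice were 68.0, 20.1, 30.4, 28.3 and 55.3 CPM at 8 months and 35.3, 43.0, 28.4, 45.2 and 65.5 CPM at 4 months. Its level was above FVB mice in each Tgαq*44 mouse of both ages, and the value of mouse 4 at 8 months was far above the other 4. The strain difference in change was 1.87 ± 0.53 (adjusted p = 0.021, 17 of 20 fits, up to 0.062 without Tgαq*44 mouse 4 at 8 months). Fhl1, a LIM protein of the sarcomere, gave 1.03 ± 0.24 (adjusted p = 0.0049).

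The strain difference in change was 0.79 ± 0.25 for Myh7, the foetal β-myosin heavy chain (adjusted p = 0.037, 7 of 20 fits, up to 0.088 without Tgαq*44 mouse 3 at 8 months), and 1.05 ± 0.33 for Tpm2, β-tropomyosin (adjusted p = 0.032, 12 of 20 fits, up to 0.24 without Tgαq*44 mouse 4 at 8 months), and the groups of both genes overlapped. Nppb, the B-type natriuretic peptide, was above FVB mice in each Tgαq*44 mouse at both ages, but its strain difference in change was -0.55 ± 0.40 and did not pass (adjusted p = 0.38). Without mouse 4 of the 8-month-old Tgαq*44 group, 2 of the 12 foetal genes passed, and over the 20 such fits the count was between 2 and 6, lowest without FVB mouse 5 at 4 months, FVB mouse 2 at 8 months or Tgαq*44 mouse 4 at 8 months.

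Several of the highest strain differences in change belonged to genes with a low level in FVB mice. Ncam1, a neural cell adhesion molecule that marks stressed cardiomyocytes, was at 35.1, 37.7, 22.7, 57.2 and 38.2 CPM at 8 months and 5.92, 9.64, 3.21, 5.82 and 4.65 CPM at 4 months in Tgαq*44 mice. FVB mice had 3.79, 1.75, 1.56, 2.46 and 3.10 CPM at 8 months and 2.33, 3.38, 1.40, 3.30 and 3.75 CPM at 4 months. Here the smallest 8-month-old Tgαq*44 value was above the largest of the other 15. Between the strains the change differed by 2.91 ± 0.34 (adjusted p = 1.5e-07), and at 10 months Ncam1 was 3.82 higher in Tgαq*44 mice. Grin2c, a subunit of the NMDA receptor, averaged 18.1 ± 3.92 CPM at 8 and 2.40 ± 0.775 CPM at 4 months in Tgαq*44 mice, against 1.75 ± 0.478 CPM at 8 and 1.38 ± 1.18 CPM at 4 months in FVB mice. It gave 2.54 ± 0.48 (adjusted p = 0.00064). St14, the membrane serine protease matriptase, gave 2.30 ± 0.55 (adjusted p = 0.0060), Cdsn, a desmosome-associated adhesion protein of the epidermis, gave 3.23 ± 0.50 (adjusted p = 3.9e-05), and Pou3f1, a POU-domain transcription factor of glia, gave 2.73 ± 0.72 (adjusted p = 0.012). In these 3 genes the mean level was 3.37, 8.01 and 2.24 CPM in 8-month-old Tgαq*44 mice and at most 1.37 CPM in each of the other groups.

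Matrix genes diverged upward in Tgαq*44 mice, and none of the members that passed was a fibrillar collagen. Of 36 interstitial matrix and collagen genes, 7 had a higher change and 0 a lower one, with a median of 0.51, beside 5.88% and 3.97% of all genes. The first count was between 5 and 10 over the fits without 1 mouse. Median changes were 0.85 in Tgαq*44 and 0.27 in FVB mice, and 24 members passed the test of a rise in Tgαq*44 mice (16.5% of all genes did) and 8 in FVB mice (6.7% of all genes). Fmod, a small proteoglycan that binds collagen fibrils, was at 9.00, 5.80, 4.99, 13.4 and 5.63 CPM at 8 months and 1.21, 2.62, 1.60, 3.29 and 1.92 CPM at 4 months in Tgαq*44 mice. In FVB mice it was at 1.34, 1.10, 1.04, 1.10 and 1.78 CPM at 8 months and 1.89, 2.23, 1.96, 3.23 and 1.46 CPM at 4 months. The 8-month-old Tgαq*44 values lay above all others, and the strain difference in change was 2.65 ± 0.46 (adjusted p = 0.00019, edgeR). Ltbp2, a protein of the elastic microfibril, was at 27.4, 26.1, 19.8, 33.1 and 37.3 CPM at 8 months and 4.49, 12.5, 3.56, 3.96 and 5.39 CPM at 4 months in Tgαq*44 mice. The FVB values were 2.34, 1.86, 3.18, 2.12 and 3.73 CPM at 8 months and 1.78, 2.09, 1.96, 2.67 and 3.34 CPM at 4 months. It gave 2.08 ± 0.42 (adjusted p = 0.0010), with 1 high value at 4 months, in Tgαq*44 mouse 2.

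Bgn, biglycan, was at 1631, 1168, 1131, 1724 and 1502 CPM at 8 months and 489.6, 877, 436, 665 and 633 CPM at 4 months in Tgαq*44 mice. FVB hearts held 406, 249.9, 353, 433 and 494 CPM at 8 months and 328, 398, 232, 362 and 621 CPM at 4 months. Levels of the 8-month-old Tgαq*44 mice were all above the rest, and the strain difference in change was 1.21 ± 0.29 (adjusted p = 0.0063). Col12a1, a collagen of fibril surfaces, gave 1.66 ± 0.46 (adjusted p = 0.017) and Eln, elastin, 0.99 ± 0.27 (adjusted p = 0.017). Cilp, a matrix protein that inhibits TGF-β1, rose in both strains, by 2.86 in Tgαq*44 and 1.36 in FVB mice, with a strain difference in change of 1.49 ± 0.46 (adjusted p = 0.031, 12 of 20 fits, up to 0.086 without FVB mouse 5 at 4 months). Col6a5, a chain of collagen VI outside the list, gave 2.45 ± 0.61 (adjusted p = 0.0078). For Col1a1, a chain of collagen I, the value was 0.80 ± 0.41 (adjusted p = 0.20) and for Postn, periostin, 0.33 ± 0.29 (adjusted p = 0.48), neither of which passed, although Col1a1 and Postn were above FVB mice in each Tgαq*44 mouse at 4 and at 8 months. Markers of fibroblasts (8 measured, median -0.011) and of activated fibroblasts (8 measured, median 0.20) had 0 members past the test in edgeR, in limma-voom and in DESeq2, and 1 and 1 at an unadjusted p under 0.05 in edgeR, which 26.8% of all genes reached.

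Matrix turnover genes had 5 of 27 members with a higher change and 0 with a lower one (median 0.38), beside 5.88% and 3.97% of all genes. They included Timp2, an inhibitor of metalloproteinases, with 0.69 ± 0.16 (adjusted p = 0.0036), and Loxl3, a lysyl oxidase that crosslinks collagen, with 0.82 ± 0.25 (adjusted p = 0.030, 13 of 20 fits, up to 0.076 without FVB mouse 5 at 4 months). Timp3, another such inhibitor, differed from these: it fell in FVB mice by 1.31 on the log2 scale, while the change of -0.33 in Tgαq*44 mice did not pass (strain difference in change 0.98 ± 0.27, adjusted p = 0.017). Of the TGF-β, BMP and Ctgf genes, 7 of 25 had a higher and 1 a lower change (median 0.43), beside 5.88% and 3.97% of all genes. Tgfb3, a TGF-β ligand, gave 1.08 ± 0.23 (adjusted p = 0.0017), Tgfbi, a matrix protein induced by TGF-β, 0.88 ± 0.19 (adjusted p = 0.0026), and Fstl3, which binds activins, 1.74 ± 0.39 (adjusted p = 0.0037). The member with a lower change was Id2, an inhibitor of helix-loop-helix factors (-0.67 ± 0.19, adjusted p = 0.021, 19 of 20 fits, up to 0.050 without FVB mouse 2 at 4 months). Wnt pathway genes had 4 of 20 members with a higher change (median 0.46), beside 5.88% of all genes. They were Frzb, a secreted Wnt inhibitor, at 0.94 ± 0.25, Wnt9a, a ligand, at 0.98 ± 0.28, Fzd1, a receptor, at 0.63 ± 0.17, and Apcdd1, an inhibitor of Wnt signalling, at 0.84 ± 0.25 (adjusted p of at most 0.029). Only 1 of these 4 kept an adjusted p under 0.05 in all 20 fits without 1 mouse. At 10 months, 34 of the 36 matrix genes, 20 of the 27 turnover genes and 12 of the 20 Wnt genes were higher in Tgαq*44 mice, beside 17.1% of all genes. Already at 4 months, 29, 10 and 7 of these genes were higher in Tgαq*44 mice and 0, 2 and 3 lower. Their median strain differences at 4 months were 1.01, 0.56 and 0.29, beside 0.00067 for all genes. The counts at 10 months thus include differences that were present before this interval. In the fits without 1 mouse, the count with a higher change was between 3 and 7 for the turnover genes (3 without any of 7 mice), between 3 and 9 for the TGF-β genes (3 or 4 without any of 11 mice) and, for the Wnt genes, between 2 and 6, lowest without FVB mouse 5 at 4 months or FVB mouse 1 at 8 months.

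Adamtsl2, a secreted glycoprotein of the microfibril that restrains TGF-β, was outside the lists and changed in both strains in opposite directions. It was at 40.0, 49.0, 32.9, 50.8 and 43.0 CPM at 8 months and 16.4, 34.4, 11.9, 14.2 and 23.4 CPM at 4 months in Tgαq*44 mice. Levels in FVB mice were 6.47, 7.02, 10.4, 13.3 and 16.0 CPM at 8 months and 27.0, 39.4, 30.8, 36.3 and 38.2 CPM at 4 months. In FVB mice the 8-month-old animals were all below the 4-month-old ones, while in Tgαq*44 mice the ages overlapped in 1 value. In the test the strain difference in change was 2.79 ± 0.37 (adjusted p = 3.6e-06), of which 1.11 came from Tgαq*44 mice and -1.67 from FVB mice. Gdf15, a secreted stress cytokine of the TGF-β family that the study names among genes of cardiac ageing, was at 169, 83.2, 114, 203 and 205 CPM at 8 months and 9.92, 17.4, 17.6, 24.2 and 36.3 CPM at 4 months in Tgαq*44 mice. FVB mice had 6.47, 7.35, 6.29, 6.63 and 16.5 CPM at 8 months and 3.11, 4.59, 3.18, 6.89 and 5.21 CPM at 4 months. Each older Tgαq*44 mouse was far above the rest, and the change of 0.90 in FVB mice did not pass (adjusted p = 0.24). Its strain difference in change was 1.98 ± 0.63 (adjusted p = 0.038, 8 of 20 fits, up to 0.090 without FVB mouse 4 at 4 months). Among other genes that the study names in this context, Cdkn1a passed, as described with the glucocorticoid genes, and so did Cilp, given above. Not past the test were 5 others, with values of 0.25 ± 0.83 for Egr2 and -0.018 ± 0.54 for Egr3, immediate early transcription factors, -0.027 ± 0.40 for Timp1, an inhibitor of metalloproteinases, 0.92 ± 0.43 for Sfrp2, a secreted Wnt modulator, and 0.19 ± 0.29 for Itga11, a collagen receptor (adjusted p of at least 0.16, edgeR). Timp1 rose in both strains, by 1.28 in Tgαq*44 and 1.30 in FVB mice.

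**Figure D3:**
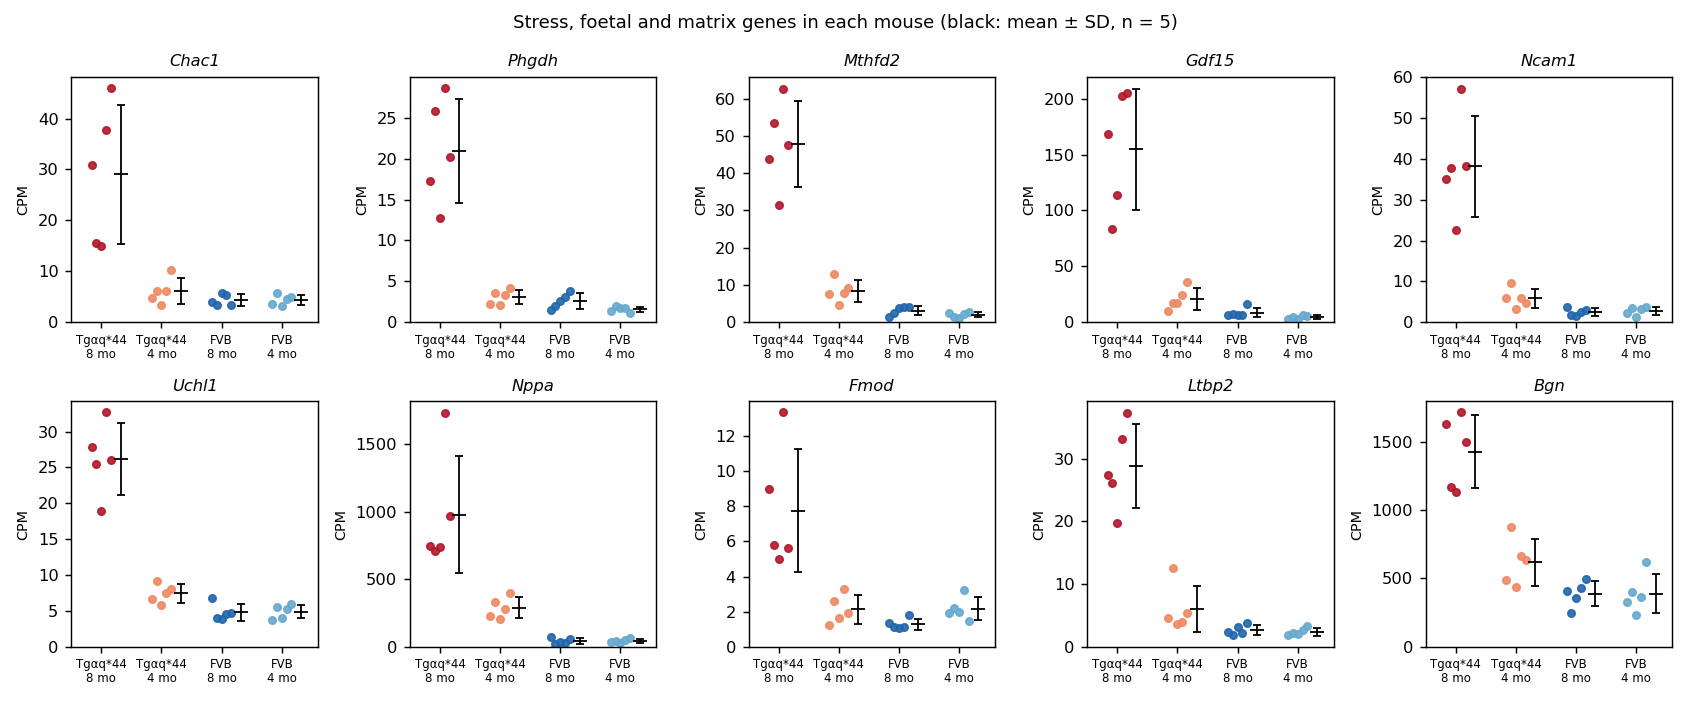
Levels in CPM of 10 stress, foetal and matrix genes, 1 point per mouse, with the mean ± SD of each group in black (n = 5). In each gene the 5 Tgαq*44 mice aged 8 months (dark red) lie above the 4-month-old Tgαq*44 mice (orange) and above both ages of FVB mice (dark and light blue), as for Ncam1 with 22.7 to 57.2 CPM against at most 9.64 CPM in the other groups.

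Glucocorticoid-responsive genes were the pathway list with the highest median, and here the change lay in FVB mice. Of 20 members measured, 14 had a higher and 0 a lower change in Tgαq*44 mice, beside 5.88% and 3.97% of all genes. The median strain difference in change was 1.50. Over the fits without 1 mouse, the first count was between 10 and 15, lowest without Tgαq*44 mouse 4 at 8 months. The median change was 0.28 in Tgαq*44 and -1.39 in FVB mice, and 14 members fell in FVB mice (6.07% of all genes did), while 3 rose and 1 fell in Tgαq*44 mice. Glucocorticoids act through a nuclear receptor that induces such genes within hours, so their levels are known to follow stress and the time of day. Neither the hour of sampling nor handling is given in the sources used here.

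Fkbp5, which holds the glucocorticoid receptor in a low-affinity state and is induced by it, was at 6.66, 11.6, 10.5, 12.3 and 11.3 CPM at 8 months and 6.30, 10.1, 7.07, 6.34 and 7.38 CPM at 4 months in Tgαq*44 mice. In FVB mice it was at 7.03, 5.92, 7.33, 5.18 and 7.45 CPM at 8 months and 22.9, 39.4, 65.2, 78.5 and 25.1 CPM at 4 months. The 4-month-old FVB mice were above all other mice, and the other 3 groups overlapped. This gave a strain difference in change of 3.32 ± 0.53 (adjusted p = 7.9e-05, edgeR), with a change of -2.81 in FVB mice and 0.51 in Tgαq*44 mice, where it did not pass (adjusted p = 0.30). Zbtb16, a transcriptional repressor induced by glucocorticoids, was at 36.4, 34.4, 35.8, 54.4 and 50.1 CPM at 8 months and 79.2, 73.2, 51.3, 52.4 and 61.7 CPM at 4 months in Tgαq*44 mice. The FVB values were 32.9, 37.5, 30.1, 34.0 and 42.3 CPM at 8 months and 158, 166, 213, 288 and 234 CPM at 4 months. Its 4-month-old FVB values were again above all others and the strain difference in change was 2.00 ± 0.42 (adjusted p = 0.0022). Hif3a, a hypoxia-inducible factor, gave 2.36 ± 0.51 (adjusted p = 0.0025), Map3k6, a stress-activated kinase, 2.87 ± 0.47 (adjusted p = 0.00012), and Arrdc2, an arrestin-domain protein, 2.17 ± 0.25 (adjusted p = 1.5e-07).

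Ddit4, an inhibitor of mTORC1, gave 2.21 ± 0.55 (adjusted p = 0.0086), Tsc22d3, the leucine zipper GILZ, 1.38 ± 0.30 (adjusted p = 0.0022), and Per1, a clock gene with a glucocorticoid response, 1.61 ± 0.49 (adjusted p = 0.031, 12 of 20 fits, up to 0.077 without FVB mouse 2 at 8 months). Of the circadian clock list, 1 of 19 members had a higher and 1 a lower change, beside 5.88% and 3.97% of all genes, with Per1 on the higher side. Each count was 0 or 1 in the fits without 1 mouse. Lcn2, an iron-binding acute phase protein, gave 2.90 ± 0.53 (adjusted p = 0.00039). Outside the list, Plin4, a lipid droplet coat protein, had 1.12 ± 0.18 (adjusted p = 7.9e-05) and Tcf23, a helix-loop-helix factor, 2.23 ± 0.44 (adjusted p = 0.00096). Averaged as a standardised log2 level over the 20 genes, the list stood between 0.952 and 1.80 in 4-month-old FVB mice, above the -0.928 to 0.057 of 8-month-old FVB mice, the -0.338 to -0.000397 of 8-month-old and the -0.865 to -0.159 of 4-month-old Tgαq*44 mice. Of the other 30 libraries, 3, all from 14-month-old Tgαq*44 mice, reached this range, with 1.06, 1.45 and 1.54. A match to the full glucocorticoid response element, AGAACA and TGTTCT separated by 3 bases, was in 3 of 32851 promoter windows. These are too few to compare groups, and 1 of them was of a list member whose strain difference in change did not pass. AGAACA alone was in 15.2% of 10999 genes tested that had a window. Among DEGs that had a window, it was in 12.3% of the 219 with a higher and 19.9% of the 146 with a lower change. In the list it was in 3 of 18 genes with a window, among them 1 of the 12 with a higher change. In the same search of genes with a window, TGANTCA, the AP-1 site, was in 6.46% of genes tested, 10.0% of DEGs with a higher and 12.3% with a lower change.

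Some of these genes moved in Tgαq*44 mice too, so that the strains crossed. Cdkn1a, the p21 inhibitor of cyclin-dependent kinases and a marker of senescence as well as a glucocorticoid and p53 target, was at 48.1, 55.7, 51.3, 79.2 and 69.5 CPM at 8 months and 16.8, 26.5, 16.7, 18.5 and 39.0 CPM at 4 months in Tgαq*44 mice. FVB hearts held 8.15, 18.2, 26.1, 19.0 and 27.0 CPM at 8 months and 72.3, 58.7, 139.5, 118 and 69.0 CPM at 4 months. At 4 months the Tgαq*44 mice were all below the FVB mice, and at 8 months all above them. The strain difference in change was 3.58 ± 0.49 (adjusted p = 9.8e-06), made of a rise of 1.38 in Tgαq*44 and a change of -2.21 in FVB mice. Rasd1, a Ras-like protein first found as dexamethasone-induced, was at 10.1, 9.17, 7.55, 10.3 and 6.28 CPM at 8 months and 2.47, 3.97, 3.74, 2.77 and 5.09 CPM at 4 months in Tgαq*44 mice. Levels in FVB mice were 2.34, 2.19, 4.02, 2.46 and 2.25 CPM at 8 months and 10.6, 15.9, 14.9, 9.35 and 5.53 CPM at 4 months. It crossed in the same way (3.35 ± 0.39, adjusted p = 1.5e-07), with no overlap in any of the 4 comparisons between groups that share a strain or an age. Tent5b, a poly(A) polymerase, gave 3.15 ± 0.44 (adjusted p = 1.0e-05), Hhipl1, a secreted protein linked to hedgehog signalling, 2.40 ± 0.30 (adjusted p = 4.7e-07), and Cebpb, a transcription factor of acute responses, 2.27 ± 0.61 (adjusted p = 0.016). The groups of Cebpb overlapped, and its change of 1.00 in Tgαq*44 mice did not pass (adjusted p = 0.070). Ace, the angiotensin-converting enzyme of the renin-angiotensin-aldosterone list, diverged without crossing, from similar means in both strains at 4 months. It averaged 188 ± 26.0 CPM at 8 and 109 ± 22.2 CPM at 4 months in Tgαq*44 mice, against 63.8 ± 15.1 CPM at 8 and 105 ± 25.5 CPM at 4 months in FVB mice. Its strain difference in change was 1.51 ± 0.23 (adjusted p = 3.9e-05). At 10 months, Cdkn1a (1.52), Rasd1 (1.53) and Ace (1.46) were higher in Tgαq*44 mice, whereas Fkbp5 (0.35, adjusted p = 0.51) and Zbtb16 (-0.51, adjusted p = 0.19) did not pass.

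Because the 4-month-old FVB mice carry this pattern, the strain difference was also fitted with the list's mean standardised level as a covariate. That fit left 46 DEGs, 32 with a higher and 14 with a lower change, and 55 genes at an adjusted p under 0.05. The covariate separates the 4-month-old FVB mice from the other 3 groups, so it takes up much of the contrast itself, and what it removes cannot be told apart from the strain difference. Of the immediate early genes, which respond to many stimuli, 4 of 24 had a higher change (median 0.60, 2 to 8 in the fits without 1 mouse), beside 5.88% of all genes. Among them were Maff, a small Maf factor, with 1.48 ± 0.28 (adjusted p = 0.00066), and Zfp36, which destabilises mRNA, with 1.44 ± 0.35 (adjusted p = 0.0074). Maff rose in Tgαq*44 mice (1.08) and Zfp36 fell in FVB mice (-1.21).

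**Figure D4:**
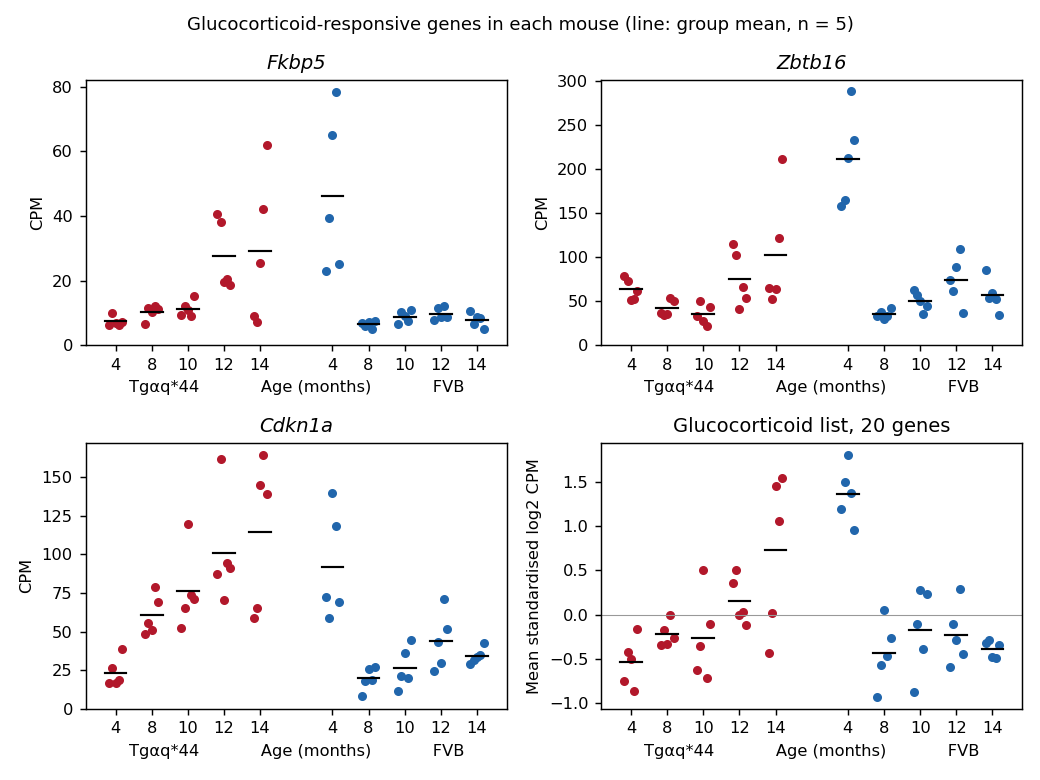
Levels in CPM of Fkbp5, Zbtb16 and Cdkn1a and the mean standardised log2 CPM of the 20 glucocorticoid-responsive genes measured, by strain and age in months (4, 8, 10, 12 and 14), 1 point per mouse, with a line at the group mean (n = 5; red, Tgαq*44; blue, FVB). Fkbp5 and Zbtb16 have their highest group mean in 4-month-old FVB mice and are low at the next age, whereas Cdkn1a is high both in 4-month-old FVB mice (58.7 to 139.5 CPM) and in older Tgαq*44 mice (48.1 to 79.2 CPM at 8 months).

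Interferon response genes had the lowest median strain difference in change, -1.10, with 20 of 40 members lower and 0 higher, beside 3.97% and 5.88% of all genes. Members rose in FVB mice (25 members, median 0.87, where 6.7% of all genes rose), and 3 members fell in Tgαq*44 mice (median -0.30, 14.8% of all genes fell). Interferons act through receptor-activated transcription factors, which bind interferon-stimulated response elements and induce antiviral effectors, guanylate-binding proteins, immunity-related GTPases and antigen presentation. Igtp, an immunity-related GTPase, was at 27.8, 8.67, 11.4, 7.94 and 13.2 CPM at 8 months and 29.7, 12.3, 14.9, 42.5 and 18.2 CPM at 4 months in Tgαq*44 mice. FVB mice had 25.6, 83.1, 275, 73.8 and 19.6 CPM at 8 months and 42.4, 11.9, 11.2, 13.8 and 14.5 CPM at 4 months. The groups overlapped, and the mean of 8-month-old FVB mice was set by mice 2, 3 and 4, with mouse 3 far above all others. Between the strains the change differed by -3.17 ± 0.94 (adjusted p = 0.028, 14 of 20 fits, up to 0.096 without FVB mouse 3 at 8 months, edgeR).

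Gbp2, a guanylate-binding protein, was at 16.1, 8.88, 10.9, 8.40 and 11.3 CPM at 8 months and 19.6, 14.8, 15.3, 19.4 and 11.9 CPM at 4 months in Tgαq*44 mice. In FVB mice it was at 13.9, 34.9, 28.5, 18.6 and 9.08 CPM at 8 months and 16.2, 8.98, 8.04, 6.68 and 9.07 CPM at 4 months. It passed in each fit without 1 mouse (-1.67 ± 0.38, adjusted p = 0.0037), although the groups overlapped. Gbp5, which promotes inflammasome assembly, gave -1.80 ± 0.45 (adjusted p = 0.0094), and Ifit1, an antiviral RNA-binding protein, -1.73 ± 0.48 (adjusted p = 0.017). Cxcl9, a chemokine that attracts T cells, gave -2.97 ± 0.77 (adjusted p = 0.012, 19 of 20 fits, up to 0.054 without Tgαq*44 mouse 4 at 4 months). Among genes near this response but outside the list, Cd274, the checkpoint ligand PD-L1, gave -2.33 ± 0.55 (adjusted p = 0.0058) and Tnfsf10, the death ligand TRAIL, -1.76 ± 0.45 (adjusted p = 0.0098). In the fits without 1 mouse the count with a lower change was between 9 and 25, lowest without FVB mouse 3 at 8 months, and it was 11 without Tgαq*44 mouse 4 at 8 months. Without FVB mice 2 and 3, a setting chosen after the values were seen, 0 of 40 members passed and the median was -0.62. Genes of the GTPase and guanylate-binding families are near copies of each other, so that reads shared between them may not be assigned with certainty.

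A core of the interferon-stimulated response element, GAAA repeated after any 2 bases, was sought on both strands of the same RefSeq windows. It was in 3.44% of all windows, in 3.73% of 10999 genes tested, in 3.2% of the 219 DEGs with a higher change that had a window and in 15.8% of the 146 DEGs with a lower change that had one. In the interferon list, which was made of genes known to respond, 18 of 30 genes with a window held it. Among the 16 of them with a lower change, 10 did (62.5%). The 120 bases before the start are shown for 4 of these genes, with the match in capitals. They are chr11:58199436-58199555, + strand (Igtp), chr11:48871421-48871540, - strand (Irgm1), chr3:142620543-142620662, + strand (Gbp2) and chr19:34640769-34640888, + strand (Ifit1), in GRCm38.p6.
Igtp: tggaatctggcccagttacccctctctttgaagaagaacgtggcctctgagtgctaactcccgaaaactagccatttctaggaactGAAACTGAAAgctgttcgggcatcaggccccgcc
Irgm1: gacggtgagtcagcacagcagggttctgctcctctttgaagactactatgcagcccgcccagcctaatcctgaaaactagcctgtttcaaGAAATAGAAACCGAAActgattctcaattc
Gbp2: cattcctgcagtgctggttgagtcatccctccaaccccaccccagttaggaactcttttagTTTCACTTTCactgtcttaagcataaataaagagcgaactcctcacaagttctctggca
Ifit1: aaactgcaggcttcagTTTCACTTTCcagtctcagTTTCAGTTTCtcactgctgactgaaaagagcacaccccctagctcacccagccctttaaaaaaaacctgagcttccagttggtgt
In Gbp2 and Ifit1 the capitals hold TTTC repeated after 2 bases, the element on the other strand, and Ifit1 and Irgm1 hold it at more than 1 position, which overlap in Irgm1. Irgm1 had a strain difference in change of -1.49 ± 0.48 (adjusted p = 0.041, 8 of 20 fits, up to 0.12 without FVB mouse 3 at 8 months). Whether these letters are bound was not tested.

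MHC genes followed. Of 17 members, 5 had a lower change (median -0.72), beside 3.97% of all genes. In FVB mice 13 rose, beside 6.7% of all genes. H2-Aa, the α chain of the class II molecule that presents antigen to helper T cells, was at 67.7, 75.9, 103, 82.8 and 65.1 CPM at 8 months and 216, 84.1, 199, 265 and 150.5 CPM at 4 months in Tgαq*44 mice. The FVB values were 127, 219, 378, 307 and 149 CPM at 8 months and 171, 73.7, 92.6, 96.8 and 149 CPM at 4 months. At 8 months each Tgαq*44 mouse was below each FVB mouse, and at 4 months the strains overlapped. In the test the strain difference in change was -2.23 ± 0.49 (adjusted p = 0.0030). H2-Ab1, the β chain, gave -1.79 ± 0.50 (adjusted p = 0.018), H2-DMb1, which loads class II peptides, -2.57 ± 0.67 (adjusted p = 0.012), Cd74, the invariant chain, -1.31 ± 0.43 (adjusted p = 0.045, 7 of 20 fits, up to 0.10 without FVB mouse 3 at 8 months), and Ciita, the activator of class II genes, -1.87 ± 0.51 (adjusted p = 0.016, 19 of 20 fits, up to 0.051 without FVB mouse 3 at 8 months). The annotated pseudogene H2-Ea-ps gave -2.85 ± 0.50 (adjusted p = 0.00019) at under 4 CPM in each mouse. Of the 5 list members, 3 passed without FVB mouse 3 at 8 months and 2 without FVB mice 2 and 3. At 10 months, 14 of the 17 MHC genes and 21 of the 40 interferon genes were lower in Tgαq*44 mice, beside 16.4% of all genes, and 0 were higher (edgeR).

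Cytokine and chemokine genes had 10 of 25 members with a lower change and 0 with a higher one (median -0.76), beside 3.97% and 5.88% of all genes. Of the members that passed, 7 were chemokines. Ccl2, which recruits CCR2-bearing monocytes, was at 14.9, 8.88, 8.51, 10.1 and 17.5 CPM at 8 months and 8.93, 20.8, 19.3, 19.0 and 17.4 CPM at 4 months in Tgαq*44 mice. FVB hearts held 4.46, 5.70, 4.73, 6.29 and 5.97 CPM at 8 months and 0.667, 0.945, 0.187, 1.26 and 3.02 CPM at 4 months. FVB mice rose without overlap, and each Tgαq*44 mouse was above each FVB mouse of its age. Its strain difference in change was -2.69 ± 0.47 (adjusted p = 0.00019, edgeR), with a change of 2.18 in FVB mice and one of -0.51 in Tgαq*44 mice that did not pass (adjusted p = 0.14). Ccl7, its neighbour in the same gene cluster and in function, was at 4.05, 2.44, 3.15, 3.07 and 5.56 CPM at 8 months and 1.97, 6.29, 5.71, 4.96 and 3.77 CPM at 4 months in Tgαq*44 mice. Levels in FVB mice were 1.00, 1.32, 1.43, 2.29 and 1.32 CPM at 8 months and 0.111, 0.203, 0.280, 0.141 and 0.417 CPM at 4 months. The order of the groups was the same (-3.00 ± 0.56, adjusted p = 0.00041), and the 4-month-old FVB levels rest on few reads. Ccl12, a further monocyte chemokine, gave -3.64 ± 0.72 (adjusted p = 0.0011).

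Tnf, the tumour necrosis factor, was at 3.06, 2.29, 2.27, 2.36 and 3.03 CPM at 8 months and 1.43, 1.04, 1.25, 2.58 and 2.07 CPM at 4 months in Tgαq*44 mice. FVB mice had 1.34, 1.54, 1.43, 2.38 and 2.72 CPM at 8 months and 0.111, 0.135, 0, 0.0703 and 0.626 CPM at 4 months. Only the 4-month-old FVB mice stood apart, below the rest, and the strain difference in change was -2.77 ± 0.69 (adjusted p = 0.0088). Il15, a cytokine of T and NK cells made by muscle, differed from the others: it fell in Tgαq*44 mice by 0.84 on the log2 scale, with 0.11 in FVB mice and a strain difference in change of -0.96 ± 0.17 (adjusted p = 0.00024). Without FVB mice 2 and 3 of the 8-month-old group, 6 of the 25 cytokine genes had a lower change, and over the fits without 1 mouse the count was between 6 and 11, lowest without Tgαq*44 mouse 4 at 4 months or Tgαq*44 mouse 2 at 8 months. At 10 months, Ccl2 was higher in Tgαq*44 mice (1.13, adjusted p = 0.0021), as were 8 of the 25 members in all, and 3 were lower. Among all genes tested, 17.1% were higher and 16.4% lower at that age.

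**Figure D5:**
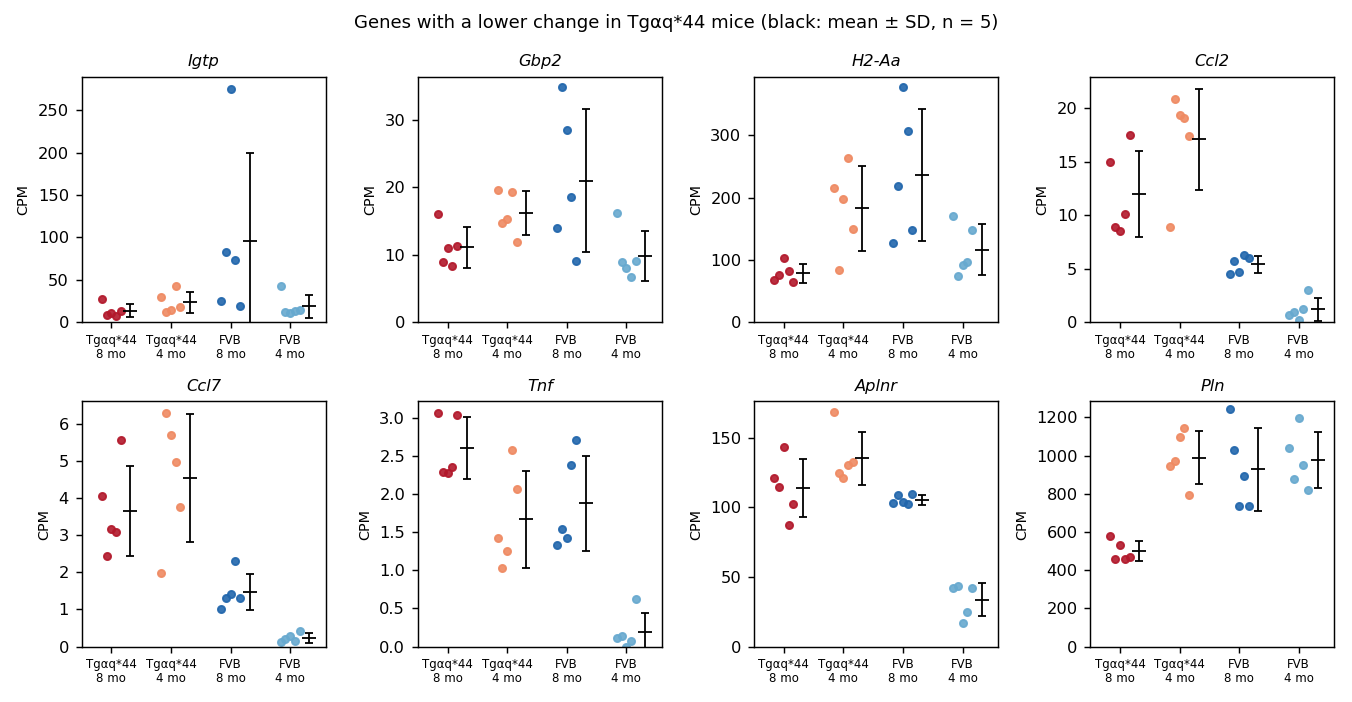
Levels in CPM of 8 genes with a lower change in Tgαq*44 mice, 1 point per mouse, with the mean ± SD of each group in black (n = 5; the SD bar is drawn down to 0 where it would reach below). Igtp, Gbp2 and H2-Aa spread widely in 8-month-old FVB mice, Ccl2, Ccl7, Tnf and Aplnr are lowest in 4-month-old FVB mice, and Pln is lowest in 8-month-old Tgαq*44 mice (460.0 to 579 CPM).

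Macrophage markers had 4 of 11 members with a lower change and 0 with a higher one (median -0.42), beside 3.97% of all genes with a lower change. Over the list, 6 values were negative and 5 positive. The 4 that passed were Fcgr1, a high-affinity receptor of IgG (-1.69 ± 0.35, adjusted p = 0.0016), Adgre1, the F4/80 antigen (-0.94 ± 0.25, adjusted p = 0.013), Lyz2, lysozyme (-0.62 ± 0.19, adjusted p = 0.028, 15 of 20 fits, up to 0.076 without Tgαq*44 mouse 2 at 4 months), and Ccr2, the receptor of CCL2 (-2.70 ± 0.72, adjusted p = 0.013). Summed over the list, the level was 342 to 481.2 CPM at 8 months and 321 to 479.7 CPM at 4 months in Tgαq*44 mice. The level was 251 to 289 CPM at 8 months and 176 to 221 CPM at 4 months in FVB mice. The sums of Tgαq*44 mice spanned about the same range at both ages, while those of FVB mice did not overlap between ages. The 4 markers that passed moved in the direction of the chemokine and interferon genes, and their part in those results was not tested. Myeloid genes outside the list with a lower change were Clec7a, the β-glucan receptor dectin-1, annotated as a polymorphic pseudogene (-2.17 ± 0.41, adjusted p = 0.00064), Ccr1, a chemokine receptor (-1.78 ± 0.39, adjusted p = 0.0027), and Gpr183, a receptor of oxysterols that guides immune cells (-1.74 ± 0.41, adjusted p = 0.0046).

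AW112010, a long noncoding RNA induced in immune cells, crossed between the strains. It was at 10.1, 10.5, 12.3, 9.38 and 11.8 CPM at 8 months and 18.6, 17.5, 21.8, 22.9 and 15.6 CPM at 4 months in Tgαq*44 mice. In FVB mice it was at 13.5, 25.3, 20.5, 21.3 and 15.4 CPM at 8 months and 12.2, 9.45, 10.5, 10.3 and 10.1 CPM at 4 months. Tgαq*44 mice were all above FVB mice at 4 months and all below them at 8 months, and the ages did not overlap in either strain. This gave a strain difference in change of -1.71 ± 0.28 (adjusted p = 8.0e-05, edgeR), with -0.84 in Tgαq*44 and 0.87 in FVB mice. At 10 months the level remained lower in Tgαq*44 mice (-0.59, adjusted p = 0.016).

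Endothelial genes also took part. Aplnr, the apelin receptor of the coronary endothelium, was at 121, 114, 143, 87.3 and 102 CPM at 8 months and 168, 124, 121, 130.3 and 133 CPM at 4 months in Tgαq*44 mice. The FVB values were 103, 109, 104, 102 and 109.6 CPM at 8 months and 42.0, 43.1, 17.3, 24.5 and 41.9 CPM at 4 months. The 4-month-old FVB mice were below all others, and in 8-month-old mice the strains overlapped. The strain difference in change was -1.90 ± 0.32 (adjusted p = 0.00014), and the gene rose by 1.64 in FVB mice. Of the 10 endothelial markers, 3 had a lower change, beside 3.97% of all genes. They were Kdr, the receptor VEGFR2 (-0.87 ± 0.19, adjusted p = 0.0027), Emcn, endomucin (-0.81 ± 0.18, adjusted p = 0.0033), and Pecam1, the adhesion molecule CD31 (-0.52 ± 0.12, adjusted p = 0.0038). Vwf, von Willebrand factor, had a higher change (0.86 ± 0.26, adjusted p = 0.028, 15 of 20 fits, up to 0.098 without FVB mouse 5 at 4 months). Among 22 angiogenic and vascular tone genes, 3 had a higher and 4 a lower change, beside 5.88% and 3.97% of all genes. They included Tek, the angiopoietin receptor, at -0.72 ± 0.18 (adjusted p = 0.0078), Apln, the ligand apelin, at -0.86 ± 0.29 (adjusted p = 0.049, 6 of 20 fits, up to 0.10 without FVB mouse 4 at 4 months), and Vegfb, a growth factor of the VEGF family, at 0.89 ± 0.24 (adjusted p = 0.016). Akap5, an anchor of protein kinase A, and Nts, neurotensin, were further genes with a large negative value, -2.26 ± 0.44 (adjusted p = 0.00077) and -2.41 ± 0.51 (adjusted p = 0.0019), at under 5 CPM in each mouse.

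Genes of energy metabolism diverged downward by small amounts, and here the change lay in Tgαq*44 mice. Fatty acid oxidation had 8 of 27 members with a lower change (median -0.29), the tricarboxylic acid cycle 9 of 22 (median -0.36), nuclear genes of oxidative phosphorylation 8 of 65 (median -0.25) and mitochondrially encoded genes 5 of 10 (median -0.60). Among all genes tested, 3.97% had a lower change. None of these 4 lists had a member with a higher change in edgeR. The median changes were -0.50, -0.27, -0.41 and -0.61 in Tgαq*44 mice, against -0.17, 0.032, -0.15 and 0.026 in FVB mice. Without Tgαq*44 mouse 4 at 8 months, 2 of the oxidative phosphorylation genes and 3 of the mitochondrially encoded genes passed, and 5 and 9 of the fatty acid and tricarboxylic acid cycle genes. Over the 20 fits without 1 mouse the count for fatty acid oxidation was between 5 and 10 and that for the tricarboxylic acid cycle between 8 and 11. For oxidative phosphorylation it was between 1 and 15, lowest without FVB mouse 1 at 8 months. For mitochondrially encoded genes it was between 0 and 5, lowest without FVB mouse 5 at 4 months, FVB mouse 2 at 8 months or Tgαq*44 mouse 3 at 4 months. Ventricular cardiomyocyte markers also leaned downward, with a median of -0.21, 10 of 12 values negative and 1 past the test, and median changes of -0.15 in Tgαq*44 and 0.014 in FVB mice. Their summed level, given at the start, was 41002 to 44976 CPM at 8 and 41852 to 54289 CPM at 4 months in Tgαq*44 mice, against 58049 to 64466 CPM at 8 and 59804 to 60872 CPM at 4 months in FVB mice, and their part in the metabolic result was not tested.

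Acadm, the medium-chain acyl-CoA dehydrogenase, was at 252, 210.0, 234, 177 and 188 CPM at 8 months and 365, 343, 406, 388 and 296 CPM at 4 months in Tgαq*44 mice. FVB hearts held 566, 519.9, 413, 467 and 378 CPM at 8 months and 542, 457, 612, 407 and 358 CPM at 4 months. The 8-month-old Tgαq*44 mice were below all other mice, and the other 3 groups overlapped. Between the strains the change differed by -0.74 ± 0.20 (adjusted p = 0.016, edgeR). Hadhb, a subunit of the trifunctional protein of β-oxidation, gave -0.60 ± 0.15 (adjusted p = 0.0073) and Decr1, which handles unsaturated fatty acids, -0.66 ± 0.21 (adjusted p = 0.034, 11 of 20 fits, up to 0.088 without FVB mouse 5 at 4 months). Suclg2, a subunit of the GTP-forming succinyl-CoA ligase, was at 52.3, 51.8, 59.0, 45.5 and 45.6 CPM at 8 months and 66.8, 77.1, 90.2, 81.2 and 68.9 CPM at 4 months in Tgαq*44 mice. Levels in FVB mice were 113, 121, 103, 96.2 and 77.5 CPM at 8 months and 88.3, 78.0, 124, 89.8 and 72.6 CPM at 4 months. Its 8-month-old Tgαq*44 values were again below the rest (-0.77 ± 0.18, adjusted p = 0.0050). Sdha and Sdhb, subunits of succinate dehydrogenase, gave -0.53 ± 0.14 (adjusted p = 0.015) and -0.68 ± 0.18 (adjusted p = 0.016). In the respiratory chain, Ndufa4 gave -0.72 ± 0.18 (adjusted p = 0.0086), Uqcrc2, of complex III, -0.80 ± 0.24 (adjusted p = 0.027, 13 of 20 fits, up to 0.086 without FVB mouse 2 at 8 months) and the mitochondrial gene mt-Nd4, of complex I, -0.83 ± 0.24 (adjusted p = 0.020, 16 of 20 fits, up to 0.058 without Tgαq*44 mouse 3 at 4 months). At 10 months, 25 of 27 fatty acid oxidation genes, 22 of 22 cycle genes and 59 of 65 oxidative phosphorylation genes were lower in Tgαq*44 mice, beside 16.4% of all genes. Already at 4 months, 19, 12 and 17 of these genes were lower in Tgαq*44 mice and 0 higher in each list. Their median strain differences at 4 months were -0.51, -0.31 and -0.26, beside 0.00067 for all genes. The counts at 10 months thus include differences that were present before this interval.

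Glucose metabolism genes moved both ways. Of 25 glycolysis genes, 4 had a higher and 2 a lower change (median 0.21), beside 5.88% and 3.97% of all genes. The counts were 2 to 5 and 0 to 3 in the fits without 1 mouse. Slc2a1, the glucose transporter GLUT1 that is high in the foetal heart, gave 0.95 ± 0.19 (adjusted p = 0.0013), Hk1, a hexokinase, 0.90 ± 0.23 (adjusted p = 0.011), Pfkp, a phosphofructokinase, 0.52 ± 0.16 (adjusted p = 0.029, 15 of 20 fits, up to 0.066 without FVB mouse 2 at 8 months), and Pgam1, a phosphoglycerate mutase, 0.58 ± 0.18 (adjusted p = 0.032, 12 of 20 fits, up to 0.082 without FVB mouse 1 at 8 months). The members with a lower change were Eno3, the muscle enolase (-0.43 ± 0.13, adjusted p = 0.026, 15 of 20 fits, up to 0.056 without FVB mouse 2 at 8 months), and Ldhb, the heart form of lactate dehydrogenase (-0.33 ± 0.10, adjusted p = 0.040, 10 of 20 fits, up to 0.086 without FVB mouse 4 at 4 months). Gpx3, the secreted glutathione peroxidase of the oxidative stress list, averaged 2074 ± 276 CPM at 8 and 765 ± 144 CPM at 4 months in Tgαq*44 mice, against 786 ± 123 CPM at 8 and 646 ± 81.4 CPM at 4 months in FVB mice. It gave 1.16 ± 0.25 (adjusted p = 0.0027).

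Most calcium handling genes had a negative value, and conduction genes moved both ways. Of 16 calcium handling genes, 3 had a lower change (median -0.30, 15 of 16 values negative), beside 3.97% of all genes, and over the fits without 1 mouse this count was between 1 and 6, lowest without FVB mouse 2 at 8 months. In Tgαq*44 mice 7 members fell, beside 14.8% of all genes, and 0 fell in FVB mice (edgeR). At 10 months 10 were lower in Tgαq*44 mice, beside 16.4% of all genes, and 4 were already lower and 0 higher at 4 months (median strain difference -0.18). Pln, phospholamban, which restrains the calcium pump of the sarcoplasmic reticulum, was at 579, 460.0, 532, 461 and 469 CPM at 8 months and 943, 971, 1095, 1142 and 792 CPM at 4 months in Tgαq*44 mice. FVB mice had 1243, 1031, 737, 890.5 and 734 CPM at 8 months and 1037, 879, 1195, 948 and 819 CPM at 4 months. Each 8-month-old Tgαq*44 mouse was below all mice of the other groups, and the strain difference in change was -0.91 ± 0.21 (adjusted p = 0.0053, edgeR). Ryr2, the calcium release channel, gave -0.65 ± 0.18 (adjusted p = 0.018, 19 of 20 fits, up to 0.051 without FVB mouse 2 at 8 months) and Casq2, calsequestrin, -0.38 ± 0.13 (adjusted p = 0.044, 8 of 20 fits, up to 0.097 without Tgαq*44 mouse 4 at 4 months). Kcnj5, a subunit of the acetylcholine-gated potassium channel, was at 26.8, 35.6, 33.1, 25.1 and 27.5 CPM at 8 months and 65.1, 47.0, 58.9, 63.9 and 55.1 CPM at 4 months in Tgαq*44 mice. In FVB mice it was at 57.9, 67.3, 63.0, 58.9 and 55.6 CPM at 8 months and 62.9, 59.6, 72.8, 61.8 and 56.8 CPM at 4 months. It fell in Tgαq*44 mice without overlap (-0.92 ± 0.17, adjusted p = 0.00058). Of 25 channel and conduction genes, 5 had a higher and 3 a lower change, beside 5.88% and 3.97% of all genes. The lower count was 3 to 5 in the fits without 1 mouse (5 without FVB mouse 3 at 4 months, FVB mouse 5 at 8 months or Tgαq*44 mouse 5 at 4 months).

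Clcn1, a chloride channel of muscle, gave -1.29 ± 0.32 (adjusted p = 0.0072) and was already below FVB mice in each Tgαq*44 mouse at 4 months. Gja1, connexin 43, gave -0.58 ± 0.15 (adjusted p = 0.0091) with a rise of 0.77 in FVB mice. Positive values included 1.16 ± 0.24 for Kcnh2, the potassium channel hERG (adjusted p = 0.0017), 1.22 ± 0.31 for Irx3, a transcription factor of the conduction system (adjusted p = 0.0095), 1.04 ± 0.28 for Hcn2, a pacemaker channel (adjusted p = 0.016), and 1.00 ± 0.28 for Kcna5, a potassium channel of the atrium (adjusted p = 0.017). In the Gq and calcineurin list, 2 of 26 had a higher change, Edn3, an endothelin (1.59 ± 0.35, adjusted p = 0.0026), and Nfatc2, a calcineurin-activated factor (0.66 ± 0.19, adjusted p = 0.025, 17 of 20 fits, up to 0.072 without FVB mouse 2 at 4 months), and 2 a lower one, Rgs4, which switches Gαq off (-0.77 ± 0.17, adjusted p = 0.0036), and Itpr2, a receptor of inositol trisphosphate (-0.60 ± 0.16, adjusted p = 0.012). Over the fits without 1 mouse the lower count was 2 in each and the higher one between 1 and 4, lowest without FVB mouse 2 at 4 months, FVB mouse 1 at 8 months or FVB mouse 2 at 8 months. Among all genes tested, 5.88% had a higher and 3.97% a lower change.

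Skeletal muscle markers gave the most positive list median, 3.55 over 5 genes, and it rested on 1 library. Atp2a1 was at 0.360, 0.501, 0.513, 101 and 0.578 CPM at 8 months and 0.164, 0.488, 0.416, 0.429 and 0.443 CPM at 4 months in Tgαq*44 mice. The FVB values were 0.112, 0.439, 0.454, 0.850 and 0.854 CPM at 8 months and 0.667, 0.540, 0.467, 0.703 and 0.625 CPM at 4 months. All values were under 1 CPM but that of mouse 4 of the 8-month-old Tgαq*44 group. With that mouse, Atp2a1 gave 5.83 ± 1.75 (adjusted p = 0.029, 15 of 20 fits, up to 0.62 without Tgαq*44 mouse 4 at 8 months) and Tnni2, the fast skeletal troponin I, 4.74 ± 1.37 (adjusted p = 0.023, 19 of 20 fits, up to 0.79 without Tgαq*44 mouse 4 at 8 months). Without it, 0 of the 5 markers passed and the median was -0.31. The medians of B cell and plasma cell markers, of adipocyte markers and of epicardial and mesothelial markers were 1.40, 1.19 and 1.06 with that mouse and -0.42, -0.025 and -0.19 without it, with 0 members past the test either way in edgeR.

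Lists with 0 members past the test in edgeR are given with the number of members at an unadjusted p under 0.05: cell cycle genes (2 of 23, median -0.34), complement genes (4 of 16, median 0.11), T and NK cell markers (1 of 6, median -0.60), B cell and plasma cell markers (3 of 6, median 1.40), adipocyte markers (2 of 6, median 1.19), erythroid markers (0 of 5, median 0.61), nerve and Schwann cell markers (1 of 6, median 0.093) and epicardial and mesothelial markers (0 of 7, median 1.06). Among all genes tested, 26.8% had an unadjusted p under 0.05 in edgeR. DESeq2 called 1 cell cycle, 1 complement, 2 B cell and 1 adipocyte gene among these lists, and limma-voom called 1 cell cycle gene.

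In the remaining 16 lists a few genes passed, and these small counts are given with their range over the fits without 1 mouse in square brackets where it is not constant. Of all genes tested, 5.88% had a higher and 3.97% a lower change. Among stress and growth lists these were oxidative stress genes (4 higher [1 to 6] and 1 lower [0 to 2] of 20, median 0.16), p53 and senescence genes (2 higher [1 to 2] and 1 lower of 18, median 0.10), heat shock genes (1 higher [0 to 3] and 0 lower of 19, median 0.11), autophagy and atrophy genes (1 higher [0 to 3] and 0 lower of 17, median 0.23), ribosomal protein genes (1 higher [0 to 2] and 0 lower of 37, median -0.039), lipid synthesis genes (3 higher [1 to 4] and 0 lower of 17, median 0.24) and PPAR targets (1 higher [1 to 4] and 0 lower of 23, median 0.12). Renin-angiotensin-aldosterone genes had 2 higher [1 to 2] and 1 lower [0 to 2] of 9: Agt, angiotensinogen, with 1.45 ± 0.41 (adjusted p = 0.020, 19 of 20 fits, up to 0.050 without FVB mouse 2 at 8 months) and Ace on the higher side, and Nr3c2, the mineralocorticoid receptor, with -0.74 ± 0.25 (adjusted p = 0.049, 5 of 20 fits, up to 0.11 without FVB mouse 5 at 4 months) on the lower. Of cell markers and structural lists, calls were made in basement membrane genes (2 higher [1 to 4] and 1 lower of 16, median 0.10), atrial cardiomyocyte markers (2 higher [1 to 2] and 0 lower of 7, median 0.53), ventricular cardiomyocyte markers (0 higher and 1 lower [0 to 1] of 12, median -0.21), endocardial markers (1 higher [0 to 2] and 0 lower of 4, median 0.60), lymphatic endothelial markers (1 higher [0 to 2] and 1 lower [0 to 1] of 6, median 0.043), smooth muscle markers (1 higher and 0 lower of 6, median 0.13), pericyte markers (1 higher [0 to 2] and 1 lower [1 to 2] of 7, median -0.22) and neutrophil and mast cell markers (0 higher and 1 lower [1 to 2] of 4, median -0.16). Of these 22 counts, 19 moved by more than 1.5 times without at least 1 mouse, and 16 fell below the count with all mice. Of those 16, 12 were at their lowest without FVB mouse 2 at 8 months, 12 without Tgαq*44 mouse 4 at 8 months, 8 without FVB mouse 5 at 4 months and 8 without Tgαq*44 mouse 3 at 4 months. The ventricular marker was Ryr2, described with the calcium genes, and the mast cell marker was Kit, a receptor of stem cell factor (-1.16 ± 0.22, adjusted p = 0.00046).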

How the data were processed

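Female mice of both strains were sampled at 5 ages, and polyadenylated RNA from the apex of the left ventricle was sequenced in several runs. The authors trimmed reads with cutadapt, aligned them with STAR to GRCm38.p6 and made a deposited table of raw counts per gene with HTSeq. Neither tool versions nor the strand setting of counting were stated in the sources used here, so antisense and overlapping genes are uncertain. Other deposited files hold the authors' log2 fold changes, p-values and lists of genes and processes, and these were not used.

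All 50 libraries were fitted in edgeR 4.0.16 (R 4.3.3) with 10 groups of strain and age. Scaling was by TMM factors, and genes were kept where at least 1 group had more than 3 mice above 0.5 CPM. The quasi-likelihood F-test gave the contrast, adjusted by the Benjamini-Hochberg method over 15129 genes. A DEG had an adjusted p under 0.05 and an absolute log2 value over 1. Errors of log2 values are standard errors (coefficient over the square root of F). Mice are separate animals, so p-values measure the spread between mice.

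Members and gene lists were chosen with earlier results of these data known. The genes named were the 20 with the highest and the 20 with the lowest log2 value among DEGs that had a clear symbol, a group mean of at least 2 CPM and an adjusted p under 0.05 in each of the 20 fits without 1 mouse, up to 4 members of each list with the largest log2 values, Gnaq and genes that the study names. Further list members and the genes described mouse by mouse were chosen after their values were seen. A few genes are not reported here, though they stay in the counts. Symbols came from GENCODE (54409 of 54532 IDs matched) and promoters from RefSeq (GRCm38.p6).

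Alternatives were limma-voom (limma 3.58.1), DESeq2 1.42.0, median-of-ratios factors, another filter and none, the 20 libraries alone, a block of mouse number, the glucocorticoid score as covariate, no fold minimum and leaving out each mouse, with the 15129 genes kept. Methods were tested on simulated data. No 2 libraries within 1 of the 4 groups were duplicates, and pairs from different groups were not checked.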

Additional observations from a re-analysis of the deposited data

Results flagged for a closer look

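The change between 4 and 8 months differed between the strains in 505 DEGs of the edgeR test. Among the genes described mouse by mouse, the strain difference in change was positive for Atp2a1 (5.83), Cdkn1a (3.58), Rasd1 (3.35), Fkbp5 (3.32), Ncam1 (2.91), Adamtsl2 (2.79), Fmod (2.65), Chac1 (2.25), Ltbp2 (2.08), Phgdh (2.06), Zbtb16 (2.00), Gdf15 (1.98), Uchl1 (1.88), Nppa (1.87), Mthfd2 (1.82) and Bgn (1.21). It was negative for Igtp (-3.17), Ccl7 (-3.00), Tnf (-2.77), Ccl2 (-2.69), H2-Aa (-2.23), Aplnr (-1.90), AW112010 (-1.71), Gbp2 (-1.67), Kcnj5 (-0.92), Pln (-0.91), Suclg2 (-0.77) and Acadm (-0.74).

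The groups tested with Dixon's criterion shared mice and came from genes and lists chosen with values known, so their count was not set against chance. Single mice stood far from the other 4 of their group in 20 of 184 such groups of 5 values. In Tgαq*44 mouse 4 at 8 months these were Atp2a1 (101 CPM, others at most 0.578), Nppa (1729.6 CPM, others at most 965), and the sums of B cell and plasma cell markers (597 CPM), epicardial and mesothelial markers (88.6 CPM) and adipocyte markers (224 CPM). In mouse 1 of that group it was Igtp (27.8 CPM, others at most 13.2).

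Of the 4-month-old Tgαq*44 mice, mouse 2 stood apart for Ltbp2 (12.5 CPM), Fkbp5 (10.1 CPM) and the sum of interstitial matrix genes (6949 CPM, others at most 4914), and mouse 1 for Aplnr (168 CPM) and Atp2a1 (0.164 CPM, below the others).

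Of the 8-month-old FVB mice, mouse 3 stood apart for Igtp (275 CPM) and Rasd1 (4.02 CPM), mouse 5 for Gdf15 (16.5 CPM) and mouse 1 for Uchl1 (6.81 CPM). Of the 4-month-old FVB mice, mouse 1 stood apart for Igtp (42.4 CPM), Gbp2 (16.2 CPM) and the sum of interferon response genes (501 CPM, others at most 306), and mouse 5 for Tnf (0.626 CPM) and the sum of foetal and hypertrophic genes (52122 CPM).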

How the results depend on the processing

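The 505 DEGs were 497 with limma-voom and 542 with DESeq2, and their split by direction stayed within 1.5 times under both. Of 131 genes named that passed, DESeq2 gave an adjusted p for 129, which all kept direction and call, and limma-voom kept 123 and lost 8. The number of genes at an adjusted p under 0.05 was 691 without a low-count filter (137 DEGs with a lower change), since 35088 genes were then tested. With no fold minimum the DEGs were the 1491 genes past the adjusted p. With the glucocorticoid score as covariate, 55 genes passed and 46 were DEGs (32 higher, 14 lower), and Ddit4 (-0.078), Kcna5 (-0.20), Per1 (-0.32) and Tsc22d3 (-0.026) turned negative. Without FVB mice 2 and 3 of the 8-month-old group, chosen after seeing the data, 665 genes passed, with 289 DEGs (96 lower). Leaving out each mouse gave 331 to 687 DEGs (198 to 405 higher, 133 to 306 lower) and 830 to 2421 genes past the adjusted p, lowest without FVB mouse 2 at 8 months. The count past the adjusted p was also 890 without Tgαq*44 mouse 4 at 8 months, 952 without Tgαq*44 mouse 3 at 4 months, 976 without FVB mouse 1 at 8 months, and 991 and 907 without FVB mice 2 and 5 at 4 months, and was highest without FVB mouse 3 at 4 months. Tnni2 was between -0.31 and 5.17, negative without Tgαq*44 mouse 4 at 8 months. The cause was not tested. A block of mouse number gave 2270 genes and 573 DEGs. Among 30 pairs of same-numbered mice from different groups, deviations from the group means had correlations between -0.19 and 0.49, over 0.1 in 17, and were higher than with every other number in 16. Pairing was taken to need a correlation over 0.1 in each pair, so mice were not treated as paired. That rule cannot pick up likeness limited to some numbers, such as mouse 5, whose correlations between groups were 0.26 to 0.49. These values are a hint from the data, not the design, that some mice of 1 number are alike.

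Levels under about 1 CPM rest on few reads, and 5 mice a group limit calls to changes well above the spread between mice. The run of each library is not given in the sources used here, so that run and group cannot be told apart.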
